A study of Mus musculus with 6 samples.

Results

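The guanylate-binding proteins (GBPs) were followed in bone marrow-derived macrophages (BMDMs, macrophages grown in culture from bone marrow cells) after co-culture with neutrophils of 2 genotypes. The family was taken as the 8 mouse genes *Gbp2*, *Gbp3*, *Gbp4*, *Gbp5*, *Gbp6*, *Gbp7*, *Gbp8* and *Gbp9*, chosen by symbol, and all 8 had a row among the 55335 genes of the table. BMDMs came from *Cd177* WT mice and were grown for 7 days with 25 ng/ml M-CSF, the growth factor of macrophages. They were then kept for 24 h together with neutrophils from the injured spinal cord at 3 days post-injury (dpi). The neutrophils came from either *Cd177* WT or *Cd177* KO mice, and RNA of the macrophages was sequenced after the co-culture. *Cd177* encodes a surface protein of a subset of neutrophils, and the comparison asks how its loss in the neutrophils bears on the macrophages. Each group held 3 libraries, so the WT group is WT macrophages with WT neutrophils and the KO group is WT macrophages with *Cd177*-/- neutrophils. No library of BMDMs without neutrophils was analysed here, so neither group gives the level of a resting macrophage. All animals of the study were male, and the sources used here do not say whether mice were pooled or whether the 3 libraries of a group came from separate cultures. The p-values therefore measure the spread between these libraries, which may be technical.

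GBPs are large GTPases of the dynamin superfamily that macrophages make in response to interferons, above all to interferon gamma. They assemble on the membranes of intracellular bacteria and on the vacuoles of parasites, break them open or mark them for destruction, and help lipopolysaccharide reach caspase-11 (encoded by *Casp4* in the mouse) in the cytosol. Promoters of interferon-induced genes often hold GAS elements, which serve interferon gamma, or the interferon-stimulated response element (ISRE), which serves type I interferons and which IRF1 can also bind.

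The mouse genes lie in 2 clusters. In GENCODE M21 (GRCm38), the first cluster lies on the plus strand of chromosome 3. Its members are, in order, *Gbp5* (ENSMUSG00000105504, chr3:142493978-142522344), *Gbp7* (ENSMUSG00000040253, chr3:142530342-142550149), *Gbp3* (ENSMUSG00000028268, chr3:142560026-142573209) and *Gbp2* (ENSMUSG00000028270, chr3:142620602-142638008). *Gbp2b*, which is not among the members, lies between *Gbp3* and *Gbp2*. *Gbp8* (ENSMUSG00000034438, chr5:105014150-105139540), *Gbp9* (ENSMUSG00000029298, chr5:105077630-105139539), *Gbp4* (ENSMUSG00000079363, chr5:105115767-105139586) and *Gbp6* (ENSMUSG00000104713, chr5:105270702-105293698) lie on the minus strand of chromosome 5. The models of *Gbp8*, *Gbp9* and *Gbp4* overlap, since all 3 begin at the same end of the locus, where they share 60 or 61 exonic bases.

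The sequence upstream of the start was at hand in RefSeq (GRCm38.p6) for 4 of the 8 members. It is shown because the members with it lie in the same cluster on chromosome 3 and fell by unequal amounts in the data. Each run below holds the 250 bases before the RefSeq start on the plus strand, with every match to the ISRE in capitals. These starts differ from the GENCODE positions given above. The window of *Gbp5* lies inside its GENCODE model, and those of *Gbp2* and *Gbp3* end inside theirs. The ISRE was searched as GAAA, any 2 bases and GAAA again, which on the other strand reads TTTC, any 2 bases and TTTC. The windows are chr3:142620413-142620662 for *Gbp2*, chr3:142559794-142560043 for the first start of *Gbp3*, chr3:142530086-142530335 for *Gbp7* and chr3:142496684-142496933 for *Gbp5*.
Gbp2: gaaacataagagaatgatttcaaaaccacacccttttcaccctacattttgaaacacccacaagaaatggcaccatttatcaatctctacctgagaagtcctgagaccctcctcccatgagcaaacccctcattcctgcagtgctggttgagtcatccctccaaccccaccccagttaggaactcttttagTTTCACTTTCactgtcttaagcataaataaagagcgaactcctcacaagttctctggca
Gbp3: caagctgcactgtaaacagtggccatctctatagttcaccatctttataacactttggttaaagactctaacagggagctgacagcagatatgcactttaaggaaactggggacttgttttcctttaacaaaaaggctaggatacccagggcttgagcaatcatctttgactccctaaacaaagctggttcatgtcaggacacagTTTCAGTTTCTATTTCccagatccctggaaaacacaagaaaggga
Gbp7: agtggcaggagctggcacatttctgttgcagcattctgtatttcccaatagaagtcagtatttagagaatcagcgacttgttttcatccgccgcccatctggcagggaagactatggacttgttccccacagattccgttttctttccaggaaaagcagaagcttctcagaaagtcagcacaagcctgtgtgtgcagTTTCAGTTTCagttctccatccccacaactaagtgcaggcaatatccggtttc
Gbp5: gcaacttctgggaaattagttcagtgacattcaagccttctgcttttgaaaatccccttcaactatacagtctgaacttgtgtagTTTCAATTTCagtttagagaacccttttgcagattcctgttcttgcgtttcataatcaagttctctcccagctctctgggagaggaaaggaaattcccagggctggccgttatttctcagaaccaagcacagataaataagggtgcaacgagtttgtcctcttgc
An ISRE match stood at -59 to -50 from the start in *Gbp2*, at -53 to -44 in *Gbp7* and at -165 to -156 in *Gbp5*. *Gbp3* held 2 overlapping matches, at -45 to -36 and at -39 to -30, which form the single run of capitals above, and none before its other annotated start. Of all 32851 windows of this length, 2.98% held an ISRE match. The GAS letters TTCNNNGAA, which read the same on both strands, were found 2 times in *Gbp5*, at -245 and -52, and 2 times in *Gbp7*, at -106 and -87, and in 7.02% of all windows. The windows of *Gbp2* and *Gbp3* held none. A match describes the letters in these windows and is not evidence of binding.

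The members of chromosome 5 are much more alike, which matters for how reads are assigned to them. The first 90 coding bases are shown on the coding strand, with the 6 positions at which the 4 members are not all the same in capitals and the other 84 in lower case.
Gbp4: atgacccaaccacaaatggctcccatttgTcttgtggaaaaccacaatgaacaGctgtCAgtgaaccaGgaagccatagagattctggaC
Gbp6: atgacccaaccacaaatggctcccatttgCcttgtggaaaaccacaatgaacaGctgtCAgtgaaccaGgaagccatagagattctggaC
Gbp8: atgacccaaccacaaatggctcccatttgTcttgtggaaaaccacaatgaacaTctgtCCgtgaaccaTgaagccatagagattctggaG
Gbp9: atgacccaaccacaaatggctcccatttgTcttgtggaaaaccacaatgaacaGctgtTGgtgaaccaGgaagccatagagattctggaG
Over the whole coding sequence, *Gbp6* was 98.4% identical to *Gbp10*, a neighbouring gene of the cluster, and *Gbp8* was 93.9% identical to its closest relative, *Gbp11*. On chromosome 3 the closest relatives were less alike, with 82.5% identity between *Gbp2* and *Gbp2b*, 79.3% between *Gbp3* and *Gbp7* and 72.4% between *Gbp5* and *Gbp2*. Of all stretches of 50 bases in the transcript, 90.2% in *Gbp6*, 21.2% in *Gbp8*, 12.8% in *Gbp4* and 9.56% in *Gbp9* also occurred in another gene of the family or in Gm43302, a gene model that joins exons of *Gbp6* and *Gbp10*. The share was 5.19% in *Gbp7*, 4.88% in *Gbp3*, 2.07% in *Gbp2* and 0 in *Gbp5*. The value of *Gbp6* is therefore uncertain as that of a single gene, and those of *Gbp8*, *Gbp4* and *Gbp9* are so in part.

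Values are FPKM, the number of fragments for each kilobase of a transcript relative to the size of the library, on which genes of different length can be compared. For the test, limma was run on log2(FPKM + 0.5), which makes changes of low genes look smaller than they are, and genes entered it when their mean over all 6 libraries reached 0.5 FPKM (13367 genes). The depth implied by the lowest values was 17600000 to 20300000 fragments per library. The median log2 difference of all tested genes was 0.19 toward the KO libraries, and the differences below are to be read against it. *Cd177* itself ran against the labels of the libraries, with 0.544, 0.309 and 0.521 FPKM in the WT libraries and 1.79, 1.84 and 2.28 FPKM in the KO libraries. By the stated design the macrophages of both groups were WT, and the neutrophils of the KO libraries were *Cd177*-/-. The libraries held neutrophil transcripts as well, more of them in the KO libraries (given with the other markers at the end). The source of the *Cd177* signal in the KO libraries was not tested. Whether the labels of the groups are right was not tested, and an exchange of them would turn every direction given here. WT and KO name the libraries as labelled. The macrophage markers *Cd68*, *Csf1r* and *Adgre1* were at 218 FPKM or more in every library.

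All but 1 of the members were lower in the BMDMs of the KO libraries and none was higher. The whole family together gave 237, 238 and 245 FPKM in the WT libraries and 12.4, 11.7 and 13.8 FPKM in the KO libraries. Counting an adjusted p-value under 0.05 (limma, Benjamini-Hochberg over the 13367 tested genes) as a pass, 7 of 8 members were lower, while 10.5% of all tested genes were lower and 27.1% were higher. The split of all genes turned with the scaling, to 2215 lower and 2156 higher genes under median-of-ratios scaling, where it was 1408 and 3619 as deposited. The rule of a fold above 2 with an unadjusted p-value under 0.05 also took in the 7 members, beside 4.43% of all tested genes lower and 6.68% higher. In these 7 every KO value lay below every WT value, which held in this direction for 14.4% of all tested genes. The exception was *Gbp8*. The median log2 difference over the 8 members was -2.68. *Gbp4*, *Gbp5* and *Gbp6* passed the filter on low values through the WT libraries alone and *Gbp8* through the KO libraries alone. For these 4 the filter itself asked for a higher level in 1 group. Their adjusted p-values given below, the count and the median are therefore descriptions. The directions of the 7 members were the same under every scaling that was run. In bulk RNA, fewer cells that express a gene and less of its RNA per cell cannot be told apart.

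**Figure D1:**
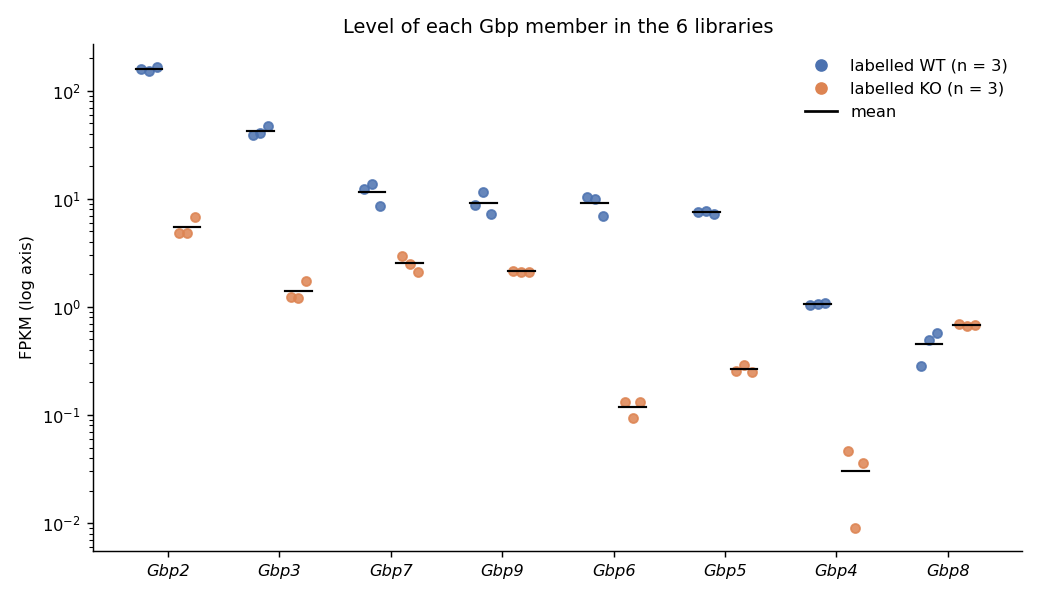
FPKM of the 8 *Gbp* members on a log axis, with 1 point for each library (blue, labelled WT, n = 3; orange, labelled KO, n = 3) and a bar at the group mean, ordered by the mean in the WT libraries. In 7 members all orange points lie below all blue points, and in *Gbp8* they lie above them.

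*Gbp2*, whose product coats parasite vacuoles and carries a C-terminal lipid anchor, was the most abundant member in both groups. Its level was 157.6, 152.9 and 166.0 FPKM in the WT libraries and 4.88, 4.81 and 6.76 FPKM in the KO libraries. The groups lay far apart, with a mean of 159 ± 6.61 FPKM (SD, n = 3) against 5.48 ± 1.10 FPKM (SD, n = 3), a ratio of 29.0. The log2 difference was -4.75 (standard error 0.13, adjusted p = 2.38e-06 from limma), and only 17 of the 13367 tested genes fell by more on this scale.

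*Gbp3*, the second most abundant member in the WT libraries, had 39.4, 40.8 and 47.1 FPKM in these and 1.24, 1.21 and 1.75 FPKM in the KO libraries. The groups did not overlap, and the library with the highest value was replicate 3 in both, as for *Gbp2*. This gave a log2 difference of -4.50 (standard error 0.14, adjusted p = 3.36e-06 from limma), with 23 genes falling by more. The ratio of the group means was 30.3.

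*Gbp5*, a lipid-anchored member whose product has been linked to activation of the NLRP3 inflammasome, had 7.60, 7.69 and 7.26 FPKM in the WT libraries and 0.257, 0.288 and 0.251 FPKM in the KO libraries. Within each group the values were close together, with a coefficient of variation of 3.05% and 7.51%. The ratio of the means was 28.3, near those of *Gbp2* and *Gbp3*, and the log2 difference was -3.39 (standard error 0.10, adjusted p = 2.73e-06 from limma). *Gbp5* entered the test through the WT libraries alone, so its p-value is a description.

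*Gbp7*, whose product has been linked to assembly of the phagocyte NADPH oxidase, fell less. It had 12.2, 13.7 and 8.57 FPKM in the WT libraries and 2.98, 2.49 and 2.12 FPKM in the KO libraries, so that 22.0% of the mean level was left. Replicate 3 was the lowest in both groups here, the reverse of *Gbp2* and *Gbp3*. Its log2 difference was -1.97 (standard error 0.19, adjusted p = 3.99e-04 from limma), and 203 genes fell by more.

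On chromosome 5, *Gbp9* fell by an amount close to that of *Gbp7*, its values being 8.70, 11.7 and 7.22 FPKM in the WT libraries and 2.16, 2.10 and 2.12 FPKM in the KO libraries. The KO libraries differed among themselves by a coefficient of variation of 1.28%, against 24.7% in the WT libraries, and 23.1% of the mean level was left. On the log2 scale it differed by -1.86 (standard error 0.17, adjusted p = 3.03e-04 from limma).

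*Gbp6* had 10.5, 10.0 and 6.95 FPKM in the WT libraries and 0.132, 0.0945 and 0.132 FPKM in the KO libraries. This was the largest ratio of group means in the family, 76.7, although the values in the KO libraries stand for only about 5.0 to 6.3 fragments each at the implied depth. The log2 difference was -3.94 (standard error 0.17, adjusted p = 1.13e-05 from limma). As for *Gbp5*, entry to the test rested on the WT libraries alone. Because reads of *Gbp6*, *Gbp10* and Gm43302 can be split between the 3 models, their sum was also tested. It was 16.4, 14.9 and 12.7 FPKM in the WT libraries and 0.216, 0.0945 and 0.132 FPKM in the KO libraries. The log2 difference of the sum was -4.55 (standard error 0.13, adjusted p = 2.96e-06 from limma). The sum too reached the filter through the WT libraries alone, so its p-value is a description.

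*Gbp4* was a low transcript in both groups, with 1.04, 1.07 and 1.08 FPKM in the WT libraries and 0.0461, 0.00903 and 0.0360 FPKM in the KO libraries. The WT values were almost the same, and the KO values stand for about 0.8 to 3.7 fragments each, so their order carries no weight. It differed by -1.56 on the log2 scale (standard error 0.13, adjusted p = 2.42e-04 from limma), and by -3.17 with a pseudocount of 0.1 in place of 0.5. *Gbp4* too entered the test through the WT libraries alone, so its p-value adds nothing to these values.

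*Gbp8* did not pass. It had 0.287, 0.495 and 0.577 FPKM in the WT libraries and 0.694, 0.667 and 0.679 FPKM in the KO libraries, about 13.4 to 25.6 and 30.1 to 33.3 fragments. The groups did not overlap, with the KO libraries above, as in 37.5% of all tested genes. The log2 difference was 0.32 (standard error 0.16, 95% interval -0.07 to 0.71, adjusted p = 0.169 from limma), so the interval holds both no difference and the median of all genes. Because *Gbp4*, *Gbp8* and *Gbp9* share an end, their sum was also tested. It was 10.0, 13.2 and 8.88 FPKM in the WT libraries and 2.90, 2.78 and 2.84 FPKM in the KO libraries. The log2 difference of the sum was -1.73 (standard error 0.15, adjusted p = 2.39e-04 from limma). Most of the sum was *Gbp9* in every library, so it follows the fall of *Gbp9* and cannot speak for *Gbp8*.

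**Figure D2:**
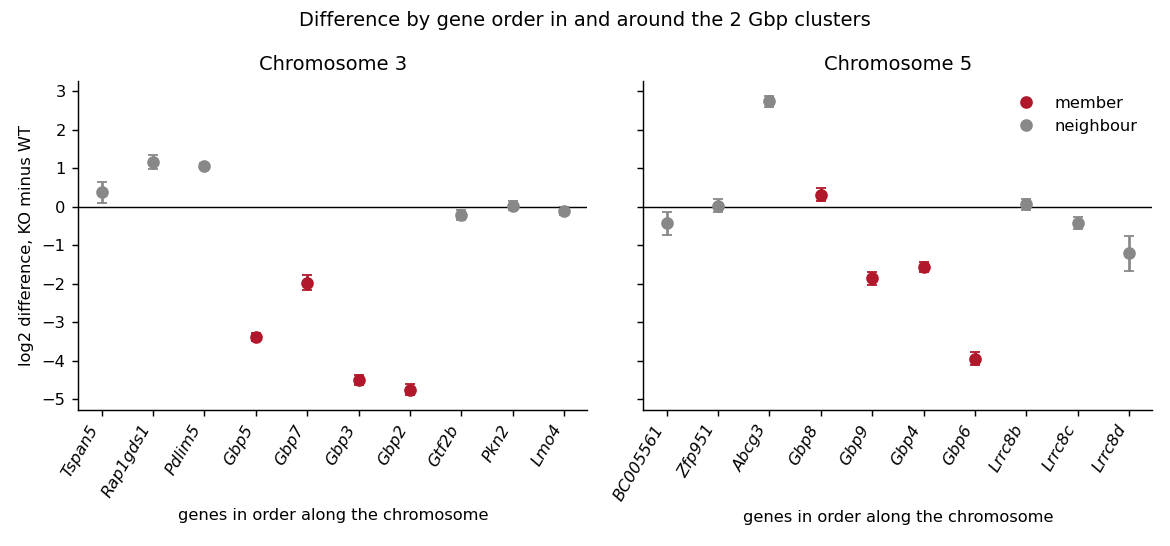
Log2 difference (KO minus WT, limma on log2(FPKM + 0.5)) with its standard error for the members (red) and the 3 tested protein-coding genes on either side (grey), in order along each chromosome and not to distance. The 4 members of chromosome 3 and 3 of chromosome 5 lie well below 0, while *Gbp8*, at 0.32, lies beside *Abcg3*, at 2.75.

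The order of the members changed between the groups. In the libraries labelled WT it was *Gbp2*, *Gbp3*, *Gbp7*, *Gbp9*, *Gbp6*, *Gbp5*, *Gbp4* and *Gbp8* by mean FPKM. The ranges of neighbours in this order overlapped from *Gbp7* to *Gbp5*, so the order of these 4 genes is not set by the data, and those of all other neighbours were apart. In the libraries labelled KO the order was *Gbp2*, *Gbp7*, *Gbp9*, *Gbp3*, *Gbp8*, *Gbp5*, *Gbp6* and *Gbp4*, and *Gbp7* and *Gbp9* were the only neighbours whose ranges overlapped. *Gbp8*, the lowest member in the WT libraries, thus stood above *Gbp5*, *Gbp6* and *Gbp4* in the KO libraries.

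The make-up of the family's transcripts moved accordingly. *Gbp2* made up 66.1% ± 1.86 (SD, n = 3) of the summed FPKM in the WT libraries and 43.1% ± 4.98 in the KO libraries, and *Gbp3* 17.6% ± 1.40 and 11.0% ± 1.43. *Gbp7* went the other way, from 4.80% ± 1.16 to 20.2% ± 4.49, as did *Gbp9*, from 3.84% ± 0.987 to 16.9% ± 1.41. *Gbp8* held 0.188% ± 0.0599 and 5.41% ± 0.439. Every one of these 5 shares was apart between the groups in all libraries, although the absolute level of all but *Gbp8* was lower.

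**Figure D3:**
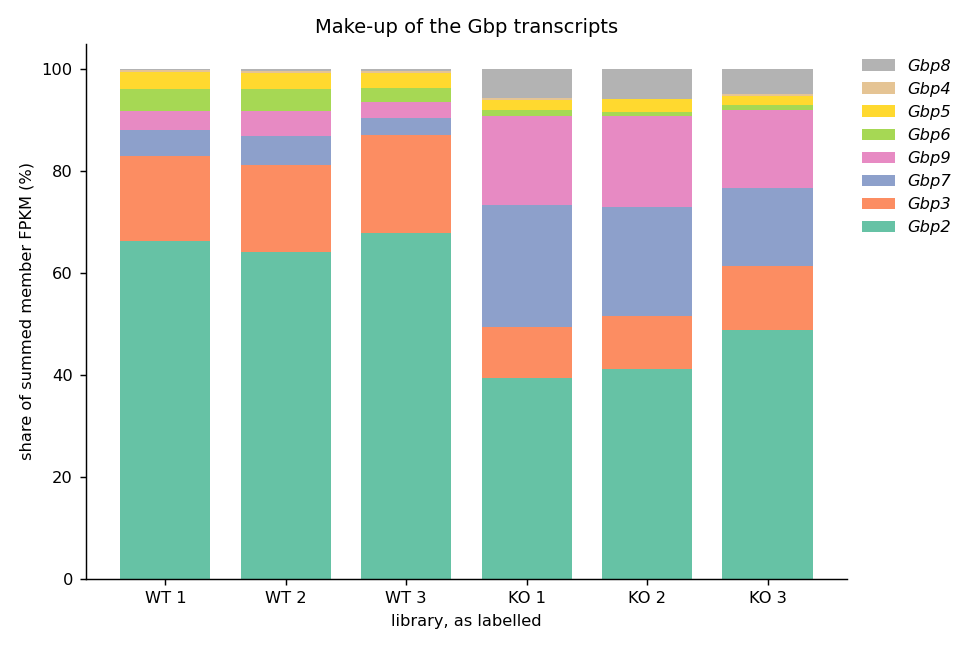
Share of each member in the summed FPKM of the 8 members, as a percent stacked to the whole, for each of the 6 libraries as labelled. *Gbp2* and *Gbp3* take most of each WT bar, and *Gbp7*, *Gbp9* and *Gbp8* take a larger part of each KO bar, with means of 20.2%, 16.9% and 5.41%.

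Whether the members fell by the same amount was examined through the log2 ratio of members within a library, which scaling between libraries cannot change. In 20 of the 28 pairs of members the ratios of the 2 groups did not overlap, and in 8 they did. The pairs share members, and the share among pairs of other genes was not computed, so this count is a description. An exact permutation test of 3 libraries against 3 cannot give a two-sided p below 0.1, which is 0.14 after adjustment over the 28 pairs, so none of these differences could pass. *Gbp2* and *Gbp3* were one of the 8 pairs that overlapped. Their log2 ratio was 1.91 ± 0.0918 (SD, n = 3) in the WT libraries and 1.97 ± 0.0215 (SD, n = 3) in the KO libraries, a change of 0.06 (exact permutation p = 0.4). That of *Gbp2* to *Gbp5* was 4.40 ± 0.104 and 4.35 ± 0.357, a change of -0.05 (exact permutation p = 0.8). *Gbp7* and *Gbp9*, which lie on different chromosomes, had a log2 ratio of 0.32 ± 0.148 and 0.23 ± 0.236, a change of -0.09 (exact permutation p = 0.5).

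Across these sets the ratios of the groups were apart. That of *Gbp2* to *Gbp7* went from 3.81 ± 0.412 in the WT libraries to 1.11 ± 0.501 in the KO libraries, a change of -2.70 (exact permutation p = 0.1). *Gbp7* and *Gbp3* are each other's closest relatives and lie side by side, yet the log2 ratio of *Gbp3* to *Gbp7* changed by -2.77 (exact permutation p = 0.1) and its sign turned. Both hold an ISRE match close to the start in the windows shown above. The GAS letters stood in the windows of *Gbp7* and *Gbp5* and not in those of *Gbp2* and *Gbp3*. Windows were at hand for only some members, and whether these letters bear on the amount of the fall was not tested. On chromosome 5 the ratio of *Gbp6* to *Gbp9* changed by -4.17, from a mean near 0 with an SD of 0.250 to -4.17 ± 0.264 (exact permutation p = 0.1). *Gbp6* was the member for which the assignment of reads is least certain.

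**Figure D4:**
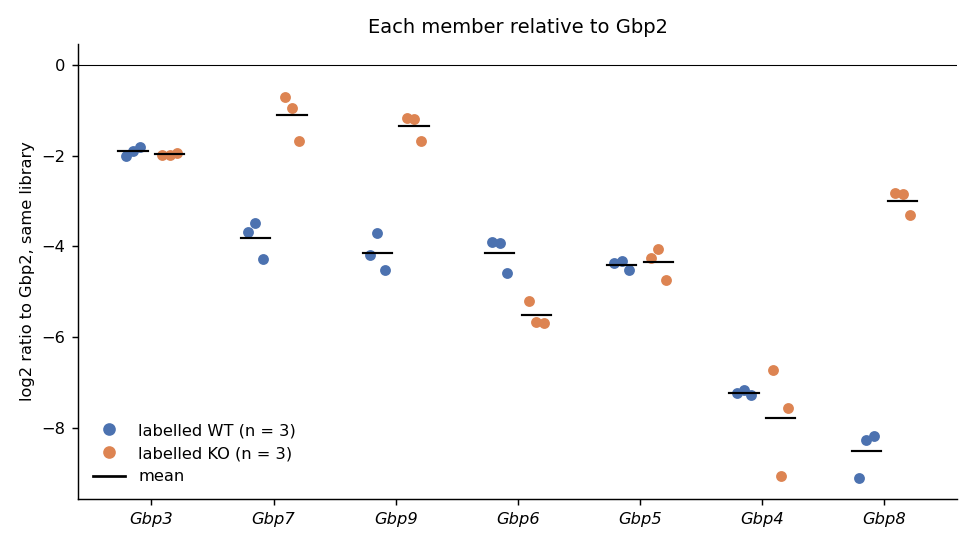
Log2 ratio of the FPKM of each other member to that of *Gbp2* in the same library, with 1 point for each library (blue, labelled WT, n = 3; orange, labelled KO, n = 3) and a bar at the group mean. The points of the groups overlap in *Gbp3*, *Gbp5* and *Gbp4*, the last with a wide spread, while the orange points lie higher in *Gbp7*, *Gbp9* and *Gbp8* and lower in *Gbp6*.

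Of the 3 further *Gbp* genes with a row, *Gbp10* had 1.22, 1.43 and 1.09 FPKM in the WT libraries and was listed at 0 in all 3 KO libraries. It passed the filter through the WT libraries alone, so its call (adjusted p = 1.89e-04 from limma) adds nothing to these values. *Gbp11* had at most 0.133 FPKM in any library and was not tested. *Gbp2b*, the closest relative of *Gbp2*, was listed at 0 in all 6 libraries, although its upstream window in RefSeq also holds an ISRE match, at -137 to -128.

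The pathway that induces the family was read from fixed lists. Of 13 genes of interferon gamma signalling, 11 were tested, of which 5 were lower, 2 were higher and 4 did not pass. *Ifng*, the ligand, was listed at 0 in 5 libraries and had 0.105 FPKM in WT replicate 3, so it was hardly detected in these libraries. The receptor chains went separate ways. *Ifngr1* rose from 13.5, 15.2 and 11.2 FPKM to 57.8, 60.5 and 43.9 FPKM in the KO libraries, a log2 difference of 1.98 (adjusted p = 1.91e-04 from limma). *Ifngr2* had 42.0 ± 1.04 and 37.9 ± 1.40 FPKM (SD, n = 3 each), with a log2 difference of -0.15 that did not pass (adjusted p = 0.162 from limma) but did under median-of-ratios and upper-quartile scaling (adjusted p = 0.0133 and 0.0495).

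Downstream of the receptor, *Irf1*, an interferon-induced transcription factor, went from 45.5, 44.9 and 52.4 FPKM to 11.1, 11.6 and 12.0 FPKM, a log2 difference of -1.99 (adjusted p = 1.44e-05 from limma). *Socs1*, the feedback inhibitor of the receptor's kinases, fell by 2.55 on the log2 scale, from 7.03 ± 0.692 to 0.787 ± 0.0760 FPKM (SD, n = 3 each). *Irf8*, a transcription factor of the myeloid lineage, had 13.0, 12.0 and 10.3 FPKM against 10.7, 11.4 and 20.7 FPKM, groups that overlapped, and did not pass (adjusted p = 0.538 from limma).

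In the type I interferon list, 8 of 11 genes were tested, of which 4 were lower, none was higher and 4 did not pass. The call of *Irf9* was lost without any single library other than WT replicate 3 (adjusted p = 0.0627 to 0.0917 from limma). The largest difference was that of *Usp18*, an inhibitor of the type I receptor, which had 30.7, 29.8 and 34.2 FPKM in the WT libraries and 1.23, 0.980 and 0.934 FPKM in the KO libraries. The smallest was that of *Irf3*, which is activated by phosphorylation rather than by its level, at 0.09 (adjusted p = 0.569 from limma). Over the 8 tested genes the median log2 difference was -0.22, and both receptor chains and the kinase gene *Tyk2* lay between -0.11 and 0.29.

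The immunity-related GTPases, interferon-induced GTPases that act beside GBPs at pathogen vacuoles, were mostly lower too. Of 13 tested genes, 10 were lower and none was higher, with a median log2 difference of -2.72, next to -2.68 for the GBP members and 0.19 for all genes. *Iigp1* had the largest difference, at 8.41, 8.37 and 8.49 FPKM in the WT libraries and 0.0564, 0.138 and 0.0909 FPKM in the KO libraries. *9930111J21Rik1* had the smallest, at 0.01, with values that overlapped between the groups. The comparison of the lists is a description, since their genes are not independent.

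The machinery around the GBPs lay closer to the median of all genes. Of 10 tested genes for the ATG conjugation system, which guides GBPs to vacuoles, 1 was lower, 1 was higher and 8 did not pass. *Atg7* had the largest difference, 0.50 (adjusted p = 0.0777 from limma), and *Atg12* the smallest, 0.02. Of the 6 genes for prenylation, which anchors *Gbp2* and *Gbp5* products in membranes, 1 was lower, 2 were higher and 3 did not pass. *Fnta*, a subunit of the prenyl transferases, had the largest difference, from 11.1 ± 0.874 to 18.3 ± 1.18 FPKM (SD, n = 3 each), and *Zmpste24* the smallest, 0.06. The lower gene of either list was lost without some single libraries, and the counts of both lists moved with the scaling.

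Of the 10 inflammasome genes, all tested, 4 were lower, 2 were higher and 4 did not pass. *Casp4*, which encodes the lipopolysaccharide sensor that GBPs serve, had 6.45, 6.86 and 7.52 FPKM in the WT libraries and 3.35, 3.19 and 4.28 FPKM in the KO libraries, a log2 difference of -0.87 (adjusted p = 0.00244 from limma). *Gsdmd*, the pore-forming protein cleaved by caspase-11, fell by 0.31 on the log2 scale (adjusted p = 0.0372 from limma), from 30.5 ± 2.31 to 24.6 ± 1.47 FPKM (SD, n = 3 each), a call that was lost without WT replicate 1, WT replicate 2 or any of the KO replicates (adjusted p = 0.051 to 0.137 from limma). *Il1b* had the largest difference of the list, -3.11, and *Aim2*, a DNA sensor, the smallest, -0.07.

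**Figure D5:**
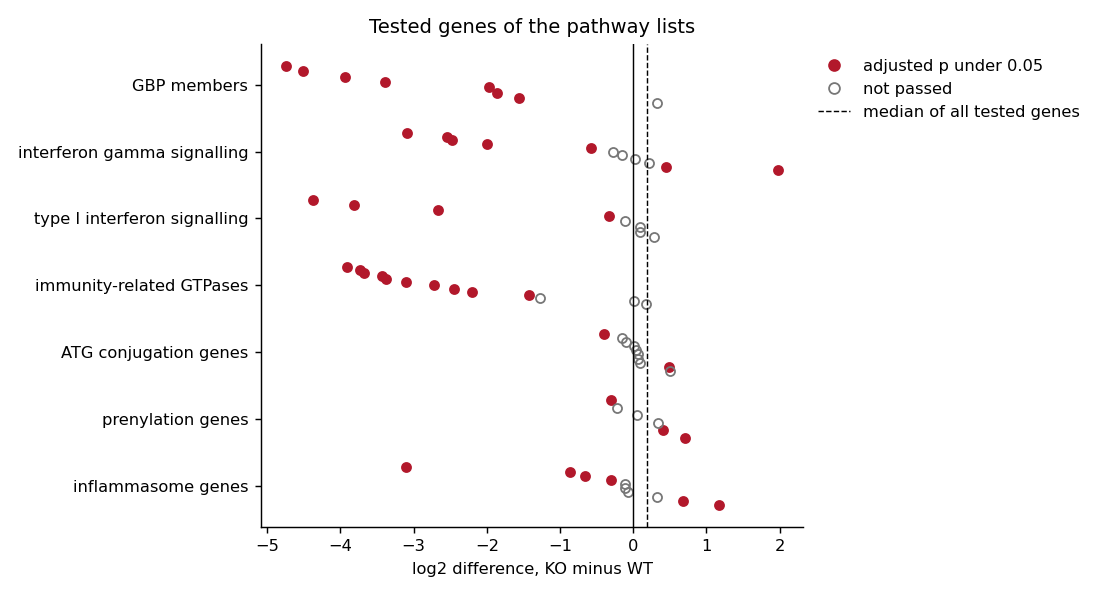
Log2 difference (KO minus WT) of every tested gene in the GBP family and in the 6 pathway lists, with 1 point for each gene, filled red at an adjusted p-value under 0.05 and open otherwise. The dashed line is the median of all tested genes, 0.19. Members and immunity-related GTPases lie mostly to the left, and ATG conjugation and prenylation genes around the line.

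Markers of other cells also differed between the groups. Of 14 neutrophil markers 11 were tested, of which 9 were higher in the KO libraries, and their summed level was 195 to 255 FPKM in the WT libraries and 539 to 554 FPKM in the KO libraries. *Ly6g*, a defining marker of mouse neutrophils, was listed at 0 in the WT libraries and had 0.660, 0.547 and 0.403 FPKM in the KO libraries. The 9 moved opposite to the 7 members that fell. Of the other 2, *Mmp8*, a neutrophil collagenase, had a log2 difference of -1.12, lower like the members (adjusted p = 3.59e-04 from limma), and *Mmp9* did not pass. The 8 markers of T and NK lymphocytes, cells that make interferon gamma, summed to 1.59 to 2.21 FPKM in the WT libraries and 5.14 to 6.18 FPKM in the KO libraries, nearly all of it *Cd4*, while *Cd3d* and *Gzma* were listed at 0 in every library. The 6 B lymphocyte markers summed to 0.711 to 1.35 and 13.1 to 15.4 FPKM, with *Ighm* and *Cd79b* higher and *Pax5* at most 0.0166 FPKM. The 6 dendritic cell markers summed to 0.610 to 1.24 and 0.314 to 0.594 FPKM, with *Flt3* listed at 0 in every library. Of the 8 macrophage markers, 2 were lower (*Fcgr1* and *Cd14*), 2 were higher and 4 did not pass. The part of these differences in the levels of the GBPs was not tested.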

How the data were processed

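The authors deposited FPKM for 55335 genes in 6 libraries. The submitters' processing notes name fastp 0.17.1, HISAT2 2.1.0, DESeq2 1.18.1 and R 3.4.3. The genome build and annotation are not given in the sources used here, and labels and paper name different kits and sequencers. GENCODE M21, which held 99.7% of the identifiers, was the source of names and positions. Among the lowest values, 37.3% to 40.5% lay within 0.1 of whole fragments (20% by chance), so counts were not recovered and count tests were not used. FPKM carries no depth per gene, and a change in abundant genes shifts all others. The fit used log2(FPKM + 0.5) and limma 3.58.1 under R 4.3.3 (eBayes with trend, two-sided, no covariates), a procedure tested on simulated data. Pairs of members were compared with exact permutation tests (scipy 1.17.1), sequences with Biopython 1.88, and pandas 2.3.3, numpy 2.4.6 and matplotlib 3.10.9 under Python 3.11.15 did the rest. Replicate numbers are shared between the groups without a stated batch. Named genes were the members, the genes with a special role in each list, its largest and smallest difference, and the 5 tested genes nearest to the mean profile of the members. Some further markers and receptor genes were named after their values were seen. Members and lists were chosen with earlier results of these data known. Alternatives covered pseudocounts, filters, scaling, variance, the replicate block, thresholds and each library left out; the sums over overlapping genes were chosen after seeing the data. Protein features were not analysed here, and some genes of the lists are counted but not reported here by name.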

Additional observations from a re-analysis of the deposited data

How the results depend on the processing

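The fall of the 7 members and the missing call of *Gbp8* held under every alternative in which they were tested, at log2 differences of -4.96 to -4.64 for *Gbp2*, -4.84 to -4.18 for *Gbp3*, -5.38 to -3.16 for *Gbp6* and 0.10 to 0.54 for *Gbp8*. Under a minimum mean of 5 FPKM, 6835 genes and 4 members were tested, and all 4 were lower. That filter left 0 lower genes among the other *Gbp* genes, 1 higher inflammasome gene, 1 higher prenylation gene and 1756 higher genes in all. Median-of-ratios scaling, which moved the median of all genes from 0.19 to -0.0005, gave 2215 genes lower and 2156 higher in place of 1408 and 3619. It also gave 1 higher gene of interferon gamma signalling, 2 lower and 0 higher ATG conjugation genes, and 2 lower and 1 higher prenylation genes. Quantile normalization gave 2 lower ATG conjugation genes and 1 higher prenylation gene, and without a filter 0 prenylation genes were lower. With single libraries left out, the lower ATG conjugation genes were 0 to 1, the lower prenylation genes 0 to 1 and the higher prenylation genes 1 to 2. The lower ATG gene, *Atg5*, was lost without WT replicate 1, KO replicate 1 or KO replicate 2, and the lower prenylation gene, *Rce1*, without any library but KO replicate 3. Among the other lists, *Gsdmd* was also lost without a filter (adjusted p = 0.0533) and *Irf9* with a common sum (adjusted p = 0.0739). The cause of these shifts was not tested. Same-numbered libraries correlated at 0.12, 0.04 and 0.26 in their deviations from the group means, and WT replicate 1 correlated best with KO replicate 2 (0.16). The value of 0.26, for replicate 3, was the highest. Replicate 3 of each group correlated at -0.23 to -0.13 with replicates 1 and 2 of the other. The numbers thus did not pair replicates 1 and 2, while the libraries numbered 3 varied alike in part. With the replicate block, 1681 genes were lower, 4253 were higher, 2 ATG conjugation genes were higher and no member's call changed. Depth limits *Gbp4*, *Gbp6* and *Gbp8*, whose lowest libraries hold few fragments.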

Other observations

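Genes outside the family were ranked by the root mean square distance of their centred log2(FPKM + 0.5) values over the 6 libraries from the members' mean profile. The members themselves stood further from this mean, from 0.346 for *Gbp5* to 1.52 for *Gbp8*. The ranking therefore does not find genes that match a given member. The 5 nearest were *Xaf1* (distance 0.053), *Tent5c* (0.071), *Jag1* (0.081), *Clec4e* (0.085) and *Cd38* (0.089). *Xaf1*, an interferon-induced gene, had 14.3, 14.2 and 14.1 FPKM in the WT libraries and 1.85, 1.71 and 1.88 FPKM in the KO libraries. *Clec4e*, which encodes a receptor for mycobacterial glycolipid, had 10.3, 11.7 and 11.3 FPKM and 1.09, 1.22 and 1.33 FPKM. *Jag1*, a Notch ligand, had 37.6, 38.5 and 30.6 FPKM and 4.61, 4.71 and 4.82 FPKM. The measure favours genes with a difference near the members' mean, and all 5 were lower in every KO library.

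None of the genes tested around the 2 clusters passed as lower, beside 10.5% of all tested genes. Some passed as higher, beside 27.1% of all tested genes. With so few neighbours, these counts lie near the shares of all genes. Of the 3 tested protein-coding genes on either side of the chromosome 3 cluster, *Pdlim5* (98.3 kb away) rose by 1.05 on the log2 scale in the KO libraries (adjusted p = 1.48e-04 from limma). *Rap1gds1*, which lies as far as 3418.8 kb away, rose by 1.17 (adjusted p = 0.00286 from limma). *Tspan5* (3586.1 kb), *Gtf2b* (127.0 kb), *Pkn2* (152.9 kb) and *Lmo4* (1550.5 kb) did not pass. On chromosome 5, *Abcg3*, which encodes an ABC transporter and lies 31.4 kb from the end of the cluster at *Gbp8*, had 0.0444, 0.171 and 0.0936 FPKM in the WT libraries and 3.51, 3.24 and 3.86 FPKM in the KO libraries. It lay apart in all libraries, as 37.5% of all tested genes did in this direction. The log2 difference was 2.75 (standard error 0.14, adjusted p = 2.14e-05 from limma). *Abcg3* passed the filter through the KO libraries alone, so its p-value is a description. *Zfp951*, *BC005561*, *Lrrc8b*, *Lrrc8c* and *Lrrc8d* did not pass, the last at -1.21 (adjusted p = 0.0803 from limma).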
